A study of Mus musculus with 24 samples.

Results

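The survival branch of the BCL2 family was followed in the blood of young and old mice with and without x-ray exposure. The 6 genes chosen were Bcl2, Bcl2l1, Mcl1, Bcl2l2, Bcl2a1b and Bcl2a1d, and their probes were found by the gene name that the array files give each probe. A probe of that name was present for 5 of the 6 genes, and the 5 genes had 8 of the 39429 probes that are not controls. No probe was named Bcl2a1b, but the probe named Bcl2a1d is assigned by the array design to transcripts of Bcl2a1a, Bcl2a1b and Bcl2a1d, so the value given for Bcl2a1d is a reading of these 3 genes together. Of the 8 probes, 7 passed a filter on dim spots, and after keeping 1 probe per gene all 5 genes with a probe were among the 17464 genes tested.

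All mice were male C57BL/6J. The 4 groups were young unirradiated mice (2 months), young irradiated mice (2 months, 4 Gy), old unirradiated mice (21 months) and old irradiated mice (21 months, 4 Gy), with 6 mice in each and 1 array per mouse. Blood was drawn from the heart at 24 h, stabilized in PAXgene solution and measured as whole blood on arrays with a single dye, Cy3. Whole blood is a mixture, so fewer cells of a type and less RNA per cell cannot be told apart in any value below. The values are log2 of the background-corrected signal minus the median of the same array, so a step of 1 is a doubling.

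BCL2 family proteins decide whether the mitochondrial outer membrane is opened during apoptosis. The effectors BAX and BAK1 form the openings, BH3-only proteins such as BBC3 (PUMA), BID and BAD trigger them or block their guards, and the survival proteins encoded by the genes described here bind both kinds and keep the membrane closed. Blood cell types lean on different guards. Naive T cells and B cells depend on BCL2, neutrophils and many other leukocytes on the short-lived MCL1, platelets and late erythroid cells on BCL-XL, the product of Bcl2l1, and myeloid and activated lymphoid cells also make A1, the product of the Bcl2a1 genes. BCL-W, the product of Bcl2l2, is best known for its role in spermatogenesis.

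The probes read stretches of 60 bases. The Bcl2 probe and the dimmer of the Bcl2l1 probes are shown because these genes gave the largest differences by size after irradiation in old and in young mice, respectively, and because each of them is the probe that the authors kept for its gene in their own table. Both are written 5′ to 3′, and no base is set in capitals.
Bcl2 probe, chr1:108608970-108609029 (mm9, minus strand): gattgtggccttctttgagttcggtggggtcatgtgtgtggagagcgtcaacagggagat
Bcl2l1 dimmer probe, chr2:152655185-152655244 (mm9, minus strand): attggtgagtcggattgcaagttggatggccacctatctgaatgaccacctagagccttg
The brighter Bcl2l1 probe lies at chr2:152606404-152606463, the Mcl1 probes at chr3:95466855-95466914 (brighter) and chr3:95465543-95465602 (dimmer), the Bcl2l2 probe that was used at chr14:55506840-55506899 and the Bcl2a1d probe at chr9:88618165-88618224, all in mm9 as the files give them. In RefSeq's GRCm38.p6 annotation the genes span chr1:106538176-106714290 (Bcl2), chr2:152758732-152833803 (Bcl2l1), chr3:95656944-95663179 (Mcl1), chr14:54883366-54890858 (Bcl2l2), chr9:89199273-89207838 (Bcl2a1b) and chr9:88723288-88731850 (Bcl2a1d). The builds differ, so probe and gene positions were not set against each other, and exons and UTRs were not looked up.

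The Bcl2a1 copies are close to identical in the windows shown, which hold their annotated start sites. The windows were lined up on shared bases, so these starts do not all fall at the same place. The windows below, taken from RefSeq's promoter sequences in GRCm38.p6, run over 140 bases and end on the same short run of bases in each copy, and capitals mark bases that differ from Bcl2a1d. They are shown because the array reads these copies with 1 probe.
Bcl2a1d, chr9:88731801-88731940 (minus strand): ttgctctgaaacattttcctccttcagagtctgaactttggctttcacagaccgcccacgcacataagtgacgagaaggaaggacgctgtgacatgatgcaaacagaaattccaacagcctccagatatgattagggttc
Bcl2a1a, chr9:88956830-88956969 (plus strand): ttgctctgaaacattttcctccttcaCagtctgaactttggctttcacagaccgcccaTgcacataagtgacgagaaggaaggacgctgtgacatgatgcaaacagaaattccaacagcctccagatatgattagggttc
Bcl2a1b, chr9:89199139-89199278 (plus strand): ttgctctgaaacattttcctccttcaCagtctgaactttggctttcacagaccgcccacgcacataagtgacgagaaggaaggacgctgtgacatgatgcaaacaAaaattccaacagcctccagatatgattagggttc
Bcl2a1a and Bcl2a1b each differed from Bcl2a1d at 2 of the 140 bases (98.6% identity). The matching window of Bcl2a1c, which has a probe of its own on the array, differed at 6 bases (95.7% identity). It ends before the annotated start of that gene.

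The arrays were not all alike, and this touches the genes described here. Cdkn1a, the p53 target that encodes the cell cycle inhibitor p21 and served as the check of the radiation labels, was 33.4-fold higher in irradiated young mice and 15.5-fold higher in irradiated old mice, and in neither age did the groups overlap. Among the old irradiated mice, arrays 4 and 6 had the lowest median signals of all 24 arrays (8.66 and 8.84, against up to 44.8 elsewhere). They correlated at 0.989 with each other across genes, whereas their median correlations with the rest of their group were 0.832 and 0.826. Old unirradiated arrays 1 and 6 correlated at 0.994, the highest of any pair, but did not hold the same values and were counted as 2 mice. Old irradiated arrays 2, 3 and 5 and young irradiated arrays 2, 4 and 5 had the highest levels of hepatocyte markers. Young and old mice were scanned on different days and lay on different slides, so scan day and age cannot be told apart. Within each age a slide of 4 arrays held only unirradiated mice, another only irradiated mice, and the remaining slide held both. Treatment and slide can therefore be told apart only in part.

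The levels in the 24 mice fell into different orders for the 5 genes, as the plot of single mice shows.

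**Figure D1:**
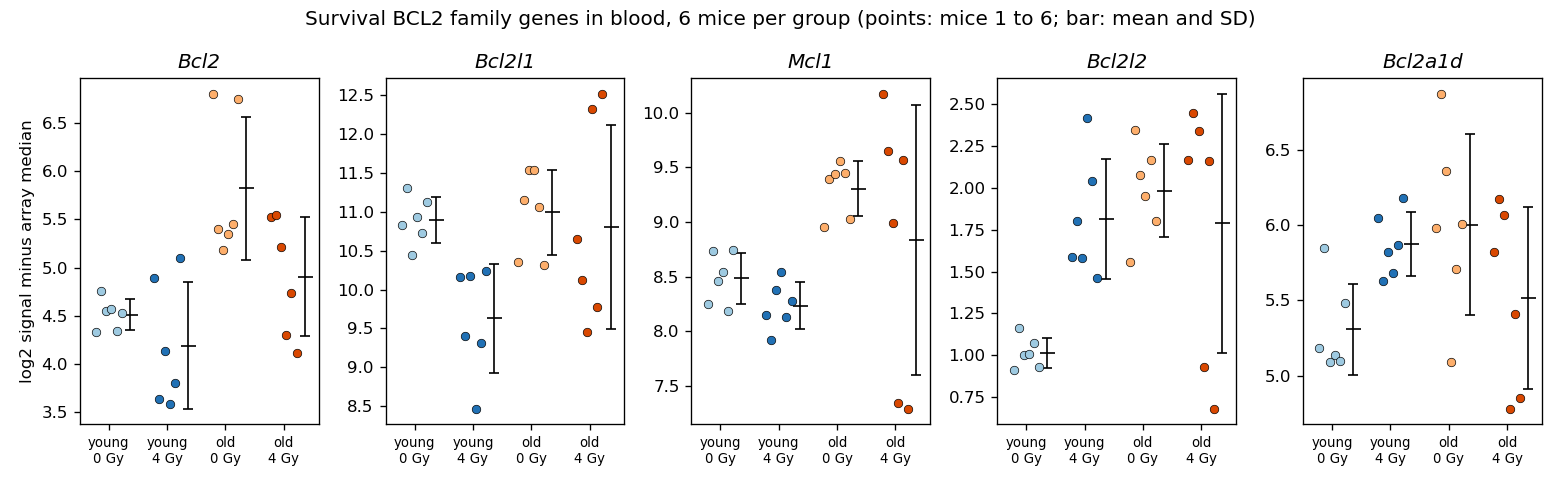
Log2 signal minus the array median (y axes, with a scale of their own for each gene) for 5 survival genes in the 4 groups of 6 mice (x axes); points are mice in the order of their replicate numbers, and the bar is the mean with the SD. Bcl2l1 was lower in every irradiated than in every unirradiated young mouse, and Bcl2l2 was higher, whereas the old irradiated mice spread widely, with arrays 4 and 6 the highest of their group for Bcl2l1 and the lowest for the other 4 genes.

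In young mice, 2 of the 5 genes passed the test after irradiation. Bcl2l1 fell, Bcl2l2 rose, and Bcl2, Mcl1 and Bcl2a1d were not called. The count was 0 with normexp background correction, with the deposited values, in 1 fit of all 24 arrays and within the slide that held both treatments. In the same comparison 35.8% of all genes tested were called (14.4% higher and 21.4% lower), so 2 of 5 is near the background and says nothing particular about the family. In old mice none of the 5 was called, where 25% of all genes were. There limma gave 1 of the 5 genes, Bcl2, at an unadjusted p under 0.05, and the exact permutation test gave 0.

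Bcl2l1 was the gene with the largest change in young mice. Its brighter probe, which was used, read 10.45 to 11.30 with a median of 10.88 in young unirradiated mice and 8.47 to 10.24 with a median of 9.78 in young irradiated mice. All 6 irradiated young mice lay below all 6 unirradiated ones. The difference was -1.26 (SE 0.291, adjusted p = 0.00329, limma), a level 2.4-fold lower. Over all genes 15.4% had the irradiated young mice entirely below. The dimmer probe moved the same way but with overlap and was not called (-0.93, SE 0.415, adjusted p = 0.0844).

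Within the irradiated young mice, arrays 2, 4 and 5 read 9.40, 8.47 and 9.32 for Bcl2l1, and arrays 1, 3 and 6 read 10.16, 10.18 and 10.24. The 3 lower ones were the 3 with high hepatocyte markers and with the lowest erythroid markers of the young mice. Without these arrays the difference was -0.70 and was still called (adjusted p = 0.0125). On the slide that held both treatments it was -1.14, which was not called with 2 mice a side (adjusted p = 0.185). The part of the markers in the difference was not tested.

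In old mice Bcl2l1 read 10.31 to 11.54 (median 11.11) without irradiation and 9.46 to 12.51 (median 10.38) after it. The irradiated old mice split, with 12.32 and 12.51 on arrays 4 and 6, above every other mouse, and 9.46 to 10.65 on the other 4. The difference was -0.19 (95% interval -1.33 to 0.96, adjusted p = 0.802). Without arrays 4 and 6 it was -0.99, which had an adjusted p of 0.0230 but an unadjusted p of 0.00918, above the limit of 0.005. With those arrays and without arrays 2, 3 and 5 it was 0.83 and was not called (adjusted p = 0.142). The direction for Bcl2l1 in old mice therefore rested on which arrays were included, and it also turned with scaling to the 75th percentile (0.12).

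Erythroid markers moved with Bcl2l1 from array to array. All 10 genes of that list, which holds globins, heme synthesis and red cell membrane genes, passed the filters. Their mean, on a log2 scale relative to the median of young unirradiated mice, was 1.97 and 2.06 on old irradiated arrays 4 and 6 and -2.41 to -1.23 on the other 4 arrays of that group. It was -0.48 to 0.21 in young unirradiated mice, -2.01 to -0.46 in young irradiated mice and -0.76 to 0.81 in old unirradiated mice. Within young irradiated mice the 3 arrays lowest for the list (-1.73, -2.01 and -1.69) were the 3 lowest for Bcl2l1. Of the 10 markers, 5 fell and 1, Tfrc, rose in young mice after irradiation, where 21.4% of all genes were called lower and 14.4% higher. The 2 with the highest signal, Hba-a1 (-0.09) and Alas2 (-0.32), were not called there. In old mice, where the arrays split as above, none was called, beside 25% of all genes. Both values come from the same scaled array, and the part of red cell RNA in the Bcl2l1 result was not tested.

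**Figure D2:**
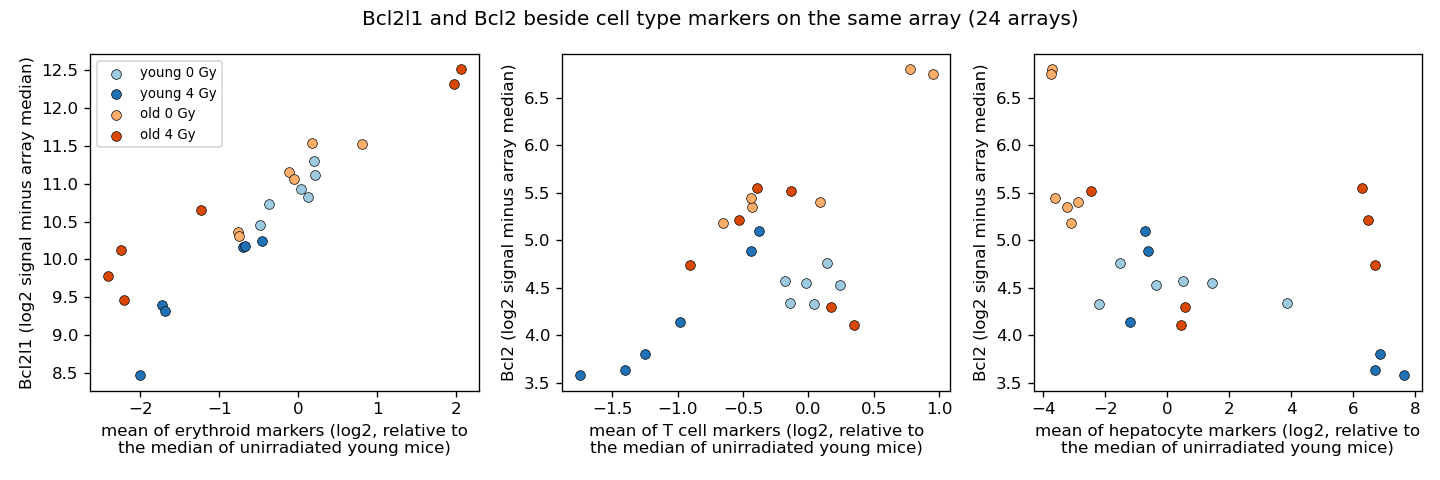
Log2 signal minus the array median of Bcl2l1 or Bcl2 (y axes) against the mean of a list of cell type markers on the same array (x axes, log2 relative to the median of young unirradiated mice); each point is 1 of the 24 mice, coloured by group. Old irradiated arrays 4 and 6 sit at the top right for Bcl2l1 and erythroid markers, and old unirradiated arrays 1 and 6 sit at the top right for Bcl2 and T cell markers.

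Bcl2, the founding survival gene, read 4.33 to 4.76 (median 4.54) in young unirradiated mice and 3.58 to 5.10 (median 3.97) in young irradiated mice. The irradiated group reached both below and above the unirradiated one, and the difference of -0.32 was within the spread (SE 0.262, adjusted p = 0.337). Arrays 2, 4 and 5 of that group had the lowest values (3.58 to 3.8), as they had for Bcl2l1. The other 3 read 4.14 to 5.10, and without arrays 2, 4 and 5 the difference was 0.20 and not called (adjusted p = 0.477).

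In old mice Bcl2 read 5.18 to 6.80 (median 5.43) without irradiation and 4.11 to 5.55 (median 4.97) after it. The groups overlapped, and the difference of -0.92 did not pass after adjustment (SE 0.387, 95% interval -1.75 to -0.09, adjusted p = 0.0805; exact two-sided permutation p = 0.0584 for 6 against 6 mice). The high end came from old unirradiated arrays 1 and 6, with 6.80 and 6.75, where the other 4 mice of the group read 5.18 to 5.45. Without them the difference was -0.44. The low end came from old irradiated arrays 4 and 6, with 4.30 and 4.11, and without those it was -0.57 (adjusted p = 0.222).

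T cell markers were highest on the same old unirradiated arrays. The mean of the 7 genes, among them Cd3e and Lck, was 0.78 and 0.95 on arrays 1 and 6 and -0.65 to 0.09 on the others of the group. In young irradiated mice the list ranged from -1.75 to -0.38, and arrays 2, 4 and 5, the lowest for Bcl2, were also the lowest for these markers (-1.40, -1.75 and -1.25). In old irradiated mice it did not run with Bcl2, since arrays 4 and 6 were highest for the list (0.17 and 0.35) and lowest for Bcl2. B cell markers fell in both ages: all 7 were called lower in young mice, with a median of -2.33, and 6 of 7 in old mice, with a median of -3.88, where 21.4% and 17.4% of all genes were called lower. The share of Bcl2 signal that came from either kind of lymphocyte was not tested.

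Mcl1, whose protein turns over quickly and guards many leukocytes, had the smallest difference of the 5 genes in young mice. It read 8.18 to 8.74 (median 8.50) without irradiation and 7.92 to 8.54 (median 8.21) after it, and the difference was -0.25 (95% interval -0.58 to 0.08, adjusted p = 0.199). Old unirradiated mice read 8.95 to 9.56 (median 9.42). Old irradiated mice had the widest spread of the 4 groups, from 7.29 to 10.17 with a median of 9.28, and contained both the highest and the lowest values of all 24 mice. The lowest were arrays 4 and 6 (7.34 and 7.29), and the other 4 read 8.99 to 10.17. The difference in old mice was -0.47 (95% interval -1.5 to 0.56), and 0.29 without arrays 4 and 6, neither of them called. On the slide with both treatments it was 0.67, also not called. The second Mcl1 probe gave -0.21 in old mice and 0.06 in young mice, and neither was called.

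Bcl2l2 rose in young mice after irradiation, and every irradiated mouse lay above every unirradiated one. It was the dimmest of the readings, well above background on 6 of 6 arrays in 3 groups and on 5 of 6 old irradiated arrays. Young unirradiated mice read 0.91 to 1.16 (median 1.01) and young irradiated mice 1.46 to 2.42 (median 1.70). The difference was 0.80 (SE 0.168, adjusted p = 0.00175, limma), or 1.75-fold. Over all genes 9.59% had irradiated young mice entirely above. Without young irradiated arrays 2, 4 and 5 it was 0.53 and still called (adjusted p = 0.00693). The second Bcl2l2 probe was not well above background on any array and gives no second reading.

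In old mice Bcl2l2 read 1.56 to 2.35 (median 2.01) without irradiation and 0.68 to 2.45 (median 2.16) after it. The low values were again arrays 4 and 6 (0.93 and 0.68), and the other 4 irradiated mice read 2.16 to 2.45. The difference was -0.20 (95% interval -0.94 to 0.54), and 0.29 without these arrays (adjusted p = 0.206).

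The Bcl2a1d probe, which reads the A1 copies together, was higher in irradiated than in unirradiated young mice but narrowly missed the limit. It read 5.09 to 5.85 (median 5.16) without irradiation and 5.63 to 6.18 (median 5.84) after it. A single unirradiated mouse, array 2 with 5.85, reached into the irradiated range. The difference was 0.57 (SE 0.168, adjusted p = 0.0140), or 1.48-fold, with an unadjusted p of 0.00501 against a limit of 0.005. Leaving out 1 array at a time gave 0.50 to 0.67, and 9 of the 12 omissions left it not called. The exceptions were young unirradiated array 2 and young irradiated arrays 2 and 4. In old mice the readings were 5.09 to 6.87 (median 6.00) and 4.78 to 6.17 (median 5.61), and the difference of -0.49 was not called (95% interval -1.25 to 0.27). Old irradiated arrays 4 and 6 had 4.78 and 4.85, the lowest of all mice, and without them the difference was -0.14 (adjusted p = 0.738).

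**Figure D3:**
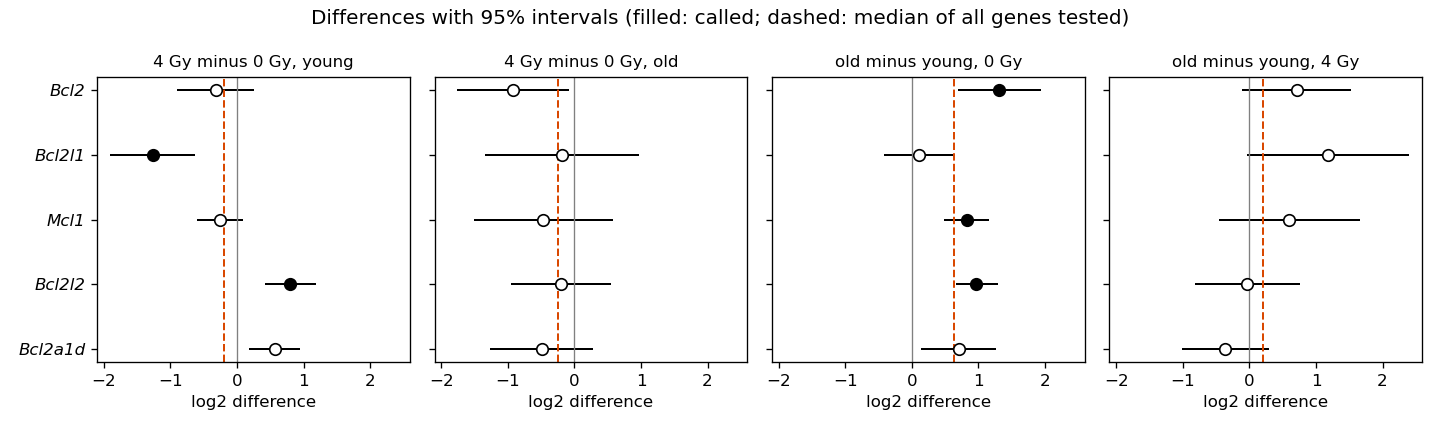
Log2 differences between groups (x axes) of the 5 survival genes (y axis) in 4 comparisons of 6 against 6 mice, with 95% intervals from limma; filled points were called, the grey line is 0 and the dashed line the median of all genes tested. In unirradiated mice the dashed line lies at 0.63, inside the intervals of Mcl1 and Bcl2a1d, below those of Bcl2 and Bcl2l2 and above that of Bcl2l1.

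Between unirradiated mice of the 2 ages, Bcl2, Mcl1 and Bcl2l2 were called higher in old mice, and their groups did not overlap. In this comparison 63.8% of all genes were called (48.3% higher and 15.5% lower), 37.3% had the old mice entirely above, and the median gene was 0.63 higher, so 3 of 5 is no more than the background. The study itself, with its own filters and normalization, reported most of its genes in this comparison as lower in old mice, the reverse of the direction here. Bcl2 was 1.31 higher (SE 0.284, adjusted p = 0.000998), Bcl2l2 0.97 (SE 0.142, adjusted p = 6.39e-05) and Mcl1 0.82 (SE 0.155, adjusted p = 0.000375). Bcl2a1d was 0.70 higher with overlap and was not called (adjusted p = 0.0231), and Bcl2l1 differed by 0.10 (95% interval -0.41 to 0.61). Relative to the median gene, Bcl2 stood highest and Bcl2l1 lowest among the probes used. The dimmer Bcl2l1 probe was 0.79 higher in old mice, with overlap, and was not called (adjusted p = 0.0213, limma). The second Mcl1 probe was 1.27 higher without overlap and was called (adjusted p = 0.000166, limma). Without old unirradiated arrays 1 and 6 Bcl2 was 0.83 higher and still called (adjusted p = 0.000419).

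These age differences depended on how arrays were scaled to each other. With the 75th percentile in place of the median, and no filter on the size of change, Bcl2 was 0.79 higher, Bcl2l2 0.46, Mcl1 0.30 and Bcl2a1d 0.18, Bcl2l1 was at -0.42, and none of the 5 was called. With quantile normalization the median gene was 0.11 higher, and only Bcl2l2 was called (0.69, adjusted p = 0.00182). The direction for Bcl2l1 flipped with the 75th percentile, quantile normalization, the median of bright probes and normexp, whereas Bcl2, Mcl1 and Bcl2l2 stayed on the same side in every scaling that gave them a value. The young radiation comparison moved less, as the plot of scalings shows, although with normexp, which is not plotted, Bcl2 was at 0.14 and Mcl1 at 0.32, neither called.

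**Figure D4:**
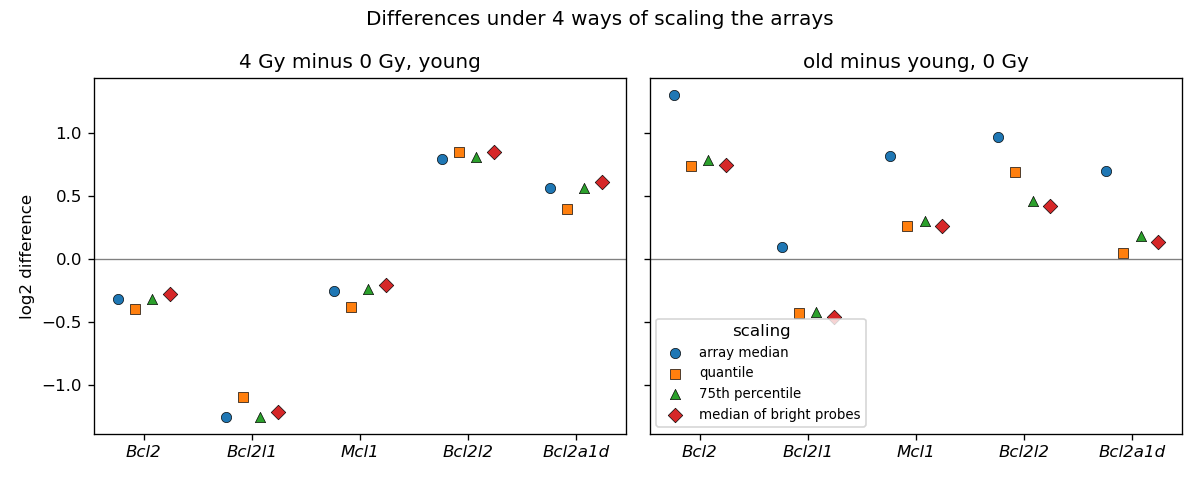
Log2 differences (y axis) of the 5 survival genes (x axis) in young mice, irradiated minus unirradiated (left), and in unirradiated mice, old minus young (right), with arrays scaled by the array median, by quantiles, by the 75th percentile or by the median of probes well above background on all arrays. The last 2 were computed without the 1.5-fold filter. Symbols of a gene lie close together on the left and apart on the right, where Bcl2l1 changes sign.

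After irradiation none of the 5 genes was called between the ages, where 2% of all genes were. Limma gave 0 of the 5 at an unadjusted p under 0.05, and so did the exact permutation test. Bcl2l1 differed by 1.18 (95% interval -0.02 to 2.38) and Bcl2 by 0.71 (95% interval -0.09 to 1.51). These are the probes used. The dimmer Bcl2l1 probe differed by 1.42 and was not called (unadjusted p = 0.0246, adjusted p = 0.169, limma). The second Mcl1 probe differed by 1.01 and was not called either (adjusted p = 0.340, limma). Mcl1 was 0.60 higher in old mice with all arrays and 1.36 higher without old irradiated arrays 4 and 6, where it was called (adjusted p = 0.00228) along with 28.5% of all genes. Bcl2l1 was 0.37 higher in old mice without arrays 4 and 6 and was not called (adjusted p = 0.448). With old irradiated arrays 2, 3 and 5 left out instead, Bcl2l1 was 2.20 higher in old mice and called (adjusted p = 0.0331). Arrays 4 and 6 were the lowest of all mice for Mcl1 and the highest for Bcl2l1. Both calls therefore rested on which arrays were kept, a choice made with the values seen, and carry no weight as tests.

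Whether old and young mice responded differently was tested as an interaction term over all 24 arrays, and limma called 0 of the 5 genes and 0 of all genes, although 4115 genes had an unadjusted p under 0.05. Bcl2a1d and Bcl2l2 were the 2 of the 5 genes with such a p. The old response minus the young one was -1.05 for Bcl2a1d (SE 0.389, adjusted p = 0.143) and -1.0 for Bcl2l2 (SE 0.380, adjusted p = 0.146). For Bcl2l1 it was 1.08 (95% interval -0.22 to 2.37). So the calls of Bcl2l1 and Bcl2l2 in young mice alone were not shown to be a difference between the ages. Without old irradiated arrays 4 and 6 the values were 0.27 for Bcl2l1, -0.51 for Bcl2l2 and -0.70 for Bcl2a1d, none called. Without old irradiated arrays 2, 3 and 5, which leaves 1 mouse beside arrays 4 and 6 in that group, Bcl2l1 (2.10), Bcl2l2 (-1.53) and Bcl2a1d (-1.42) were called together with 34.2% of all genes. Arrays 4 and 6 were the highest of their group for Bcl2l1 and the lowest for Bcl2l2 and Bcl2a1d, so these calls, too, rested on which arrays were kept.

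Ratios of probes on the same array do not depend on a scaling that subtracts 1 value per array, such as its median, and 4 were taken without a test. A ratio compares the balance of a pair between mice, not the amounts of the pair. The log2 ratio of Bcl2 to the effector gene Bax was -0.70 to -0.33 in young unirradiated mice (median -0.61) and -3.16 to -1.51 in young irradiated mice (median -2.38). In old mice it was -0.95 to 0.62 (median -0.40) and -2.39 to -1.33 (median -1.73). In both ages every irradiated mouse lay below every unirradiated mouse, with differences of means of -1.73 and -1.54. Bax itself, a p53 target, rose by 1.40 in young mice (adjusted p = 1.54e-05) and was 0.62 higher in irradiated old mice (adjusted p = 0.0518, not called). In young mice Bax alone parted the groups, with 6.23 to 6.74 after irradiation and 4.88 to 5.46 without it, while Bcl2 overlapped. Over all genes 9.59% had the irradiated young mice entirely above. How often ratios of other gene pairs part the groups was not computed. Neither Bcl2 nor Bax was called in old mice, and the shift of their ratio there is a description.

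Of the 3 ratios among survival genes, with the probes used, the ratio of Bcl2a1d to Mcl1 was the one whose groups did not overlap in young mice. With no probe named Bcl2a1b, A1 was read by the Bcl2a1d probe. Its log2 ratio to Mcl1 was -3.40 to -2.88 (median -3.17) in young unirradiated mice and -2.85 to -2.09 (median -2.28) in young irradiated mice, with no overlap. The gap was narrow, from -2.88 to -2.85, and which ratio parted the young groups depended on the Mcl1 probe. Against the second Mcl1 probe Bcl2a1d overlapped, whereas Bcl2l1 did not. There young unirradiated replicate 5 read 5.10 for Bcl2a1d and 4.68 for Mcl1, and young irradiated replicate 3 read 5.82 and 5.53. For the ratio of Bcl2a1d to Mcl1, too, a share over other gene pairs was not computed. In old mice, with the probes used, it was -4.47 to -2.52 and -4.34 to -2.44, which overlap. Bcl2l1 to Mcl1 was 1.99 to 2.58 and -0.06 to 2.01 in young mice, overlapping by 1 mouse on each side. Old irradiated mice split for this ratio, with 4.98 and 5.22 on arrays 4 and 6 and 0.21 to 0.48 on the other 4. Bcl2 to Mcl1 overlapped between irradiated and unirradiated mice in both ages.

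**Figure D5:**
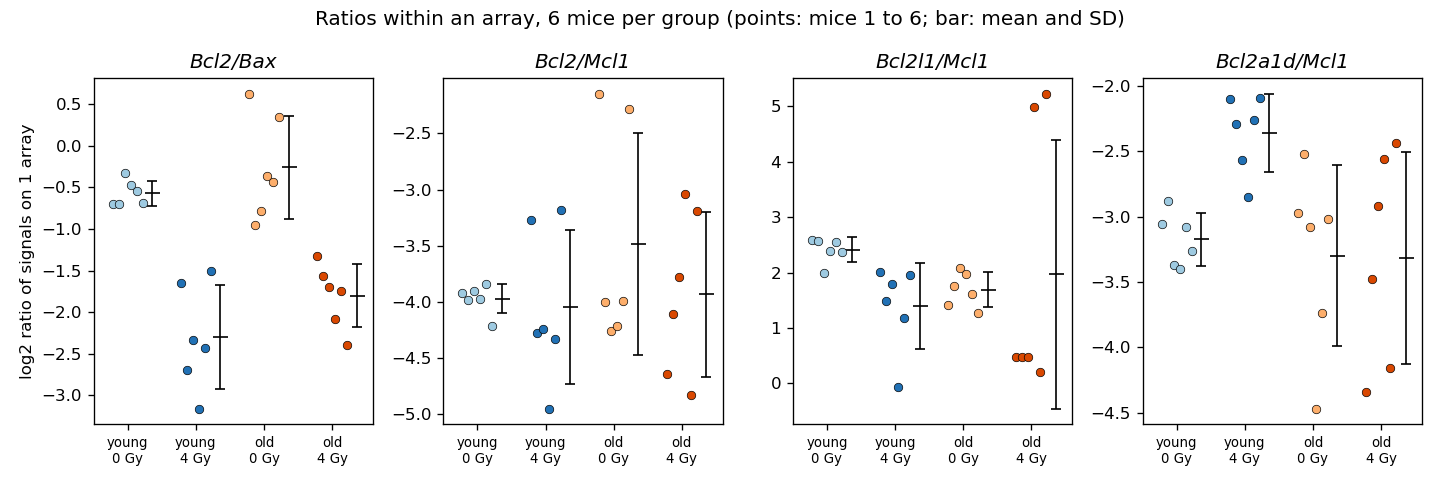
Log2 ratio of 2 signals on the same array (y axes, with a scale of their own for each pair) in the 4 groups of 6 mice (x axes); points are mice in the order of their replicate numbers, and the bar is the mean with the SD. Bcl2/Bax is lower in all irradiated mice of both ages, and Bcl2l1/Mcl1 splits the old irradiated mice into 2 at about 5 and 4 under 0.5.

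Transcripts of the proteins that the survival branch restrains were read on the same arrays. Beside the counts of called genes in the lists that follow, 14.4% of all genes were called higher and 21.4% lower in young mice, and 7.6% and 17.4% in old mice. Since the interaction test called 0 of all genes, a count that differs between the ages is not shown to be an age difference. Of the 3 effector genes 2 passed the filters, Bax and Bak1, and both rose in young mice (1.40 and 0.99), while neither was called in old mice (0.62 and -0.17). Of 8 BH3-only genes 6 were tested, and in young mice 4 rose and 1 fell. Those with the highest signal were Bbc3 (1.41, adjusted p = 7.6e-05), Bid (0.92, adjusted p = 0.00758) and Bad (0.52, adjusted p = 0.0119). Pmaip1 (NOXA), a partner of MCL1, was the other that rose, and Bmf the gene that fell (-1.47), both named because of these counts. In old mice Bmf alone was called (-2.22), and Bbc3 was at 0.80 (adjusted p = 0.190). The median of the 6 genes was 0.70 in young and -0.17 in old mice, beside -0.20 and -0.25 for all genes. In old mice the count and the sign of that median depended on the scaling: with the 75th percentile it was 0.13, and then none of the 6 BH3-only genes was called, while 1 of the 2 effectors was called higher.

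Inhibitors further down the pathway gave a mixed count. Of 5 caspase inhibitors, Cflar and Birc2 rose in young mice and Birc3 fell, where 35.8% of all genes were called in young mice and 25% in old mice. Cflar, which encodes the caspase-8 regulator c-FLIP, rose in both ages (1.59 and 1.44, adjusted p = 0.000106 and 0.00235) and was the 1 gene of this list called in old mice. Xiap was at 0.58 in young and -0.13 in old mice, neither called. Of 6 genes tested from the list on MCL1 protein turnover, the ubiquitin ligase gene Huwe1 (MULE) fell in both ages (-0.60 and -1.24), as did Btrc, and the kinase gene Gsk3b rose in young mice (1.81) and was at 1.08 in old mice (adjusted p = 0.0330, not called). Fbxw7 was not called in either age.

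Genes upstream of the survival branch included NF-kB subunits, known to drive Bcl2a1 and Bcl2l1. Rel, Relb and Nfkb2 fell in both ages, 3 of 5 subunits in each, where 21.4% of all genes were called lower in young and 17.4% in old mice. Rel stood at -1.65 (young) and -2.01 (old), and Relb at -1.05 and -1.0. Rela was at -0.30 and -0.39 and was not called in either. The median of the list was -1.05 in young and -1.69 in old mice. In old mice 2 of the 5 were called lower with the 75th percentile and 4 with quantile normalization. None of the 3 STAT genes tested, Stat3, Stat5a and Stat5b, was called after irradiation in either age. Of 10 receptors for survival cytokines, 4 rose and 4 fell in young mice, and 1 rose and 3 fell in old mice. Those that rose in young mice were Epor, Il3ra, Csf2ra and Csf2rb, and those that fell were Il7r, Il2rg, Cd40 and Tnfrsf13c. Csf3r, the receptor of a neutrophil growth factor, was at -0.17 in young mice (adjusted p = 0.348). Epor rose in both ages (2.08 and 2.25). With the 75th percentile the medians of 3 other lists also turned sign in old mice, from -0.13 to 0.17 for caspase inhibitors, from -0.10 to 0.20 for STAT genes and from -0.08 to 0.22 for cytokine receptors, whereas no list median turned in young mice under the 3 other scalings tried.

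The remaining blood cell markers set the scene for these values. Platelet markers rose in both ages, 7 of 7 genes in each, with medians of 1.78 and 1.88. Neutrophil markers rose in young mice for 4 of 10 genes, among them S100a8 (1.67) and S100a9 (1.64), and for 0 of 10 in old mice, where 14.4% and 7.6% of all genes were called higher. NK cell markers rose for 4 of 5 in young mice and 0 of 5 in old mice. Their medians were 1.61 and 0.49, and Gzma was at 1.78 and 1.60 (not called in old mice). Monocyte markers were called for 2 higher and 1 lower of 6 in young mice and for 3 lower in old mice. Tissue macrophage markers rose for 7 of 7 tested genes in young mice and 1 of 7 in old mice. The interaction test called no gene of the neutrophil, NK cell, monocyte or tissue macrophage lists. Counts that differ between the ages were therefore not shown to be an age difference. Of the 9 hepatocyte markers 6 were tested. Their mean was 6.70 to 7.66 on young irradiated arrays 2, 4 and 5 and 6.28 to 6.70 on old irradiated arrays 2, 3 and 5, and -3.74 to 3.88 on all other arrays, and 0 and 5 of the 6 rose in young and old mice. Endothelial markers were called for 1 of 3 tested genes in young and 2 of 3 in old mice, all higher. These were Vwf in both ages and Pecam1 in old mice. Kdr was at -0.28 and 0.18 and was not called, and Cdh5, Tek and Emcn did not pass the filters. These are transcript levels and not cell counts. In the study's own blood counts, platelet numbers changed little with irradiation in either age. The percentage of lymphocytes fell there in both ages, and neutrophils became the most common white blood cells. The part of any of these lists in the values of the survival genes was not tested.

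For each gene the closest companions over the 24 arrays were sought among 8791 genes (8792 for Bcl2l2) well above background on all arrays, by the root mean square difference of centred log2 values, where 0 would be the same profile. Mcl1 had the closest, Snx20 and Asxl1 (0.17 each) and Lsp1 (0.18), against an SD of Mcl1 over the arrays of 0.732. Bcl2l1 ran closest to Smap1 (0.21), Pabpc1 (0.23) and Otud5 (0.24), with an SD of 0.938. Bcl2 ran closest to Stat4 (0.23) and Celsr1 (0.25), with an SD of 0.833. Bcl2l2 ran closest to Tnfaip8 and Daglb (0.20 each) and Slc39a1 (0.21). For Bcl2a1d they were Urm1 (0.29), Fam219b (0.31) and its own paralog Bcl2a1c (0.33), which was not called in either age (0.21 in young and -0.51 in old mice). All of these arrays share groups and scaling, so likeness here includes what any gene owes to them.

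Sequence motifs were looked up in RefSeq's promoter windows of GRCm38.p6 on both strands. The motif TTCNNNGAA, read by STAT factors, was in 8.3% of 32851 promoters and in none of the windows of the 6 genes. The motif AGATAA, read by GATA factors, was in 11.2% of all promoters and in 1 of the 3 windows of Bcl2l1, and in no window of the other 5 genes. The NF-kB motif was in 4.51% of all promoters and likewise in 1 of the 3 windows of Bcl2l1 alone. A match or its absence describes the letters of these short windows.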

How the data were processed

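Cy3-labelled cRNA from 24 blood samples was hybridised to 1-colour Agilent mouse arrays (RNA was globin-reduced, per the study's methods). The intensity files that the authors deposited were made with Agilent Feature Extraction 12.0.2, which corrects the background and does not scale arrays to each other. A second, smaller table deposited by the authors has filtered and normalized log2 values. It was used as an alternative only and holds other probes for Bcl2l1 and Mcl1.

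Here log2 of the processed signal was taken, non-uniform spots were left out and each array was centred on the median of its 43020 non-control spots. A probe was dropped if at least 25% of the arrays marked it as non-uniform or as not positive and significant (24121 probes of 18729 genes left), the probe with the highest mean was kept per gene, and genes had to differ 1.5-fold from their median in 20% of the arrays (5 arrays), which left 17464. Groups came from the sample titles. Two-sided tests were limma 3.58.1 (R 4.3.3) on the 12 arrays of each comparison, or on 24 for the difference between responses, standing in for the random variance test of the methods. A gene was called at p under 0.005 and Benjamini-Hochberg adjusted p under 0.05. Adjusted p-values are over all genes tested. Exact permutation tests used 924 splits and cannot go below 0.00216. The fits were tested on simulated data. Titles number the replicates, and the study's methods give 6 mice per group. The number of arrays limits precision.

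The genes, lists and tests were chosen with earlier results of these data known. Named genes were the survival genes, the 3 genes of each pathway list and 2 of each cell type list with the highest signal, Cdkn1a, Bax and the 3 nearest genes of each survival gene, of which 1 is not reported here. Other genes were named where a count of at most 5 includes them. Alternatives were other scalings, normexp (offset 50), the deposited table, other filters and probe rules, 1 fit of all arrays, replicate or slide blocks, and leaving out arrays. Leaving out arrays that stand apart, 2 scalings without the 1.5-fold filter, and the gene lists under 3 other scalings, with the genes of each list kept, were chosen after seeing the data. Figures used Matplotlib.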

Additional observations from a re-analysis of the deposited data

Results flagged for a closer look

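Of 48 groups of 6 values checked (members, probe differences and ratios in each group), 2 held a mouse far from the other 5, by a gap above Dixon's critical value for 6 samples. Chance flags about 1 in 20 such groups, so 2 of 48 is no more than chance gives. In young unirradiated mice the log2 ratio of Bcl2 to Mcl1 was -4.21 in replicate 6, and -3.98 to -3.84 in the other 5. In the same group the log2 ratio of Bcl2l1 to Mcl1 was 1.99 in replicate 3, and 2.38 to 2.58 in the others.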

How the results depend on the processing

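The number of the 5 survival genes called in young mice (2) became 1 with scaling to the 75th percentile and 1 with the median of probes well above background on all arrays. Both of these scalings left 3 of the 5 genes after the 1.5-fold filter, and without that filter each called 3. It became 0 with normexp, with the deposited values, in 1 fit of all 24 arrays and within the slide that holds both treatments. Leaving out 1 array gave 2 to 3. Between unirradiated ages the count of 3 became 0 with the 75th percentile, with the median of bright probes (also without the 1.5-fold filter for both), with normexp and with the deposited values, and 1 with quantile normalization. Leaving out 1 array gave 3 to 4. In old mice, between irradiated ages and for the interaction the count was 0 and stayed 0 to 0 when 1 array was left out. It became 1 between irradiated ages without old irradiated arrays 4 and 6 and 1 without arrays 2, 3 and 5, and 3 for the interaction without arrays 2, 3 and 5. The cause was not tested. No called value of a survival gene changed sign in any setting. Titles give the same replicate numbers in each group. Same-numbered mice did not deviate together in a regular way (correlations of -0.60 to 0.58 over 4 comparisons). The best match of a mouse in the other group bore its own number for 3 of 6 mice in the old radiation comparison. That count was 1 in the young one, 0 between unirradiated ages and 1 between irradiated ages. The numbers were treated as names, which so few pairs cannot settle. With replicate as a block the counts were 2 in young mice, 3 between unirradiated ages and 0 in the others, and over all genes 5035 in place of 6251 were called in young mice, 3415 in place of 4366 in old mice, 10168 in place of 11140 between unirradiated ages and 2 in place of 350 between irradiated ages. Signal over background limits Bcl2l2, the dimmest reading, for which normexp gave no value after filtering.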
